A study of Bos taurus and Mus musculus with 16 samples.

Results

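Mitochondrial ribosomal proteins are the nuclear-encoded protein subunits of the ribosome inside mitochondria. They were taken as every gene whose symbol starts with MRPL (large subunit) or MRPS (small subunit) followed by a number, provided that its normalized reads averaged 10 or more in its species' table. The rule gave 77 of 16655 genes in the mouse table, 48 of the large and 29 of the small subunit. In the bovine table it gave 78 of 14852 genes, 49 of the large and 29 of the small subunit. No gene with such a symbol fell under the minimum in either species, so every gene the rule names was tested. Of these, 77 had the same symbol in both species, and the remaining one, MRPL58, was listed in mouse under its older name Ict1.

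RNA was sequenced from 16 embryo samples in a study of the transcription factor TEAD4 in mouse and cattle before implantation. Control zygotes received mRNA for BE3, which fuses a Cas9 nickase to a cytidine deaminase and so converts C to T at a guided site. Edited zygotes received the same mRNA with a mix of single guide RNAs against Tead4 (mouse) or TEAD4 (cattle). Mouse embryos were morulae of day 3.25 (2 control and 2 edited samples), and bovine embryos were blastocysts of day 7.0 (6 control and 6 edited samples). All groups thus carried the editor, and controls carried no guide RNA, so effects of guide RNAs as such cannot be told apart from loss of the factor. Strain, breed, the number of embryos in a sample and the share of edited alleles are not given in the sources used here. Nor do they say whether samples of a group came from separate injections, so p-values reflect sample-to-sample spread that may be technical.

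The mitochondrial ribosome translates the few proteins encoded by mitochondrial DNA, all of them parts of the respiratory chain and ATP synthase. Its RNA comes from mitochondrial DNA, while all of its proteins are made in the cytosol from nuclear genes and imported. Some of these proteins descend from bacterial ribosomal proteins and form the conserved core, and others exist only in mitochondria and coat that core. In preimplantation embryos, mitochondria are inherited from the oocyte, and respiration rises as the blastocyst forms.

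The edited gene was lower in the edited samples of both species, although a base edit need not change transcript level, so this is an indirect check of the labels. Mouse Tead4 had 458 and 519 normalized reads in control and 57.2 and 76.5 in edited morulae, a log2 fold change of -2.86 ± 0.25 (SE; adjusted p = 5.4e-09, limma). Bovine TEAD4 ranged from 61.2 to 125 (median 92.9) in control and from 22.6 to 65.6 (median 37.5) in edited blastocysts, -1.25 ± 0.25, with an adjusted p of 0.235 (limma). Libraries held 3642907 to 6109425 gene-assigned reads in mouse and 817329 to 2501592 in cattle. The 18S ribosomal RNA gene RN18S1 took 9.27% to 36.6% of bovine reads, with the highest share in control 6. Trophectoderm markers were present in both species. Their summed level in mouse was 6205 to 7160 in control and 1973 to 2170 in edited morulae. Of the 6 genes, 4 (Krt18, Gata3, Cdx2, Krt8) were lower past the threshold. The other 2 (Tfap2c and Eomes) lay above control, by at most 0.46, and did not pass. In cattle the sum was 11093 to 21398 in control and 8441 to 21450 in edited blastocysts, and 0 of 4 tested genes passed. Only 1 of all 8884 tested bovine genes passed, so the count of 0 does not set these markers apart. Of the 4 pluripotent and 4 primitive endoderm markers in mouse, 1 of each list was higher past the threshold and 0 were lower. Among all tested mouse genes, 8.38% were lower and 6.92% higher past the threshold. The part of these marker changes in the results below was not tested. In such bulk samples fewer cells of a type and less RNA per cell cannot be told apart. Of the cumulus and granulosa markers, 2 of 8 were listed in mouse and summed to at most 30.5, and 5 of 8 were listed in cattle and summed to at most 36.5.

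In mouse morulae, mitochondrial ribosomal protein genes were lower in the edited samples in 71 of 77 cases and above control in 6. Their median log2 fold change was -0.43, and the middle 50% of the genes lay between -0.59 and -0.19. Across all 11386 tested genes the median was -0.005, and 50.3% were below control. At an adjusted p under 0.05 (limma, Benjamini-Hochberg over all tested genes), 20 of the 77 fell and 0 rose. The background share of all tested genes was 8.38% lower and 6.92% higher. At an unadjusted p under 0.05, 37 were lower and 1 was higher (limma). Of all 11386 tested genes, 1731 were lower and 1529 higher at this level. The 20 that fell stood at 52.4% to 69.4% of their control mean. Both edited samples lay below both controls for 56 members, above both for 2, and overlapped with them for 19. Of all 11386 tested genes, 29.2% had both edited samples below both controls, and 3251 genes had both above.

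The count of 20 depended on single libraries. It was 1 without control 1, 2 without control 2, 15 without edited 1 and 37 without edited 2, and none of the 20 passed in all 4 of these fits. The median stayed below 0 in each, from -0.56 to -0.29. How many of all tested genes passed in each fit is not given here, so these counts have no background. The 18 members called lower in the authors' deposited table (0 higher, background 6.76% lower) can be set beside 18 by edgeR and 18 by DESeq2 on the recovered reads. Scaling every library to the same total in place of the authors' size factors moved the median of all genes by 0.12. On that scale 11 members fell, Mrps2 rose, and the member median was -0.30. Among all 11386 tested genes, 684 fell and 1113 rose on that scale.

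**Figure D1:**
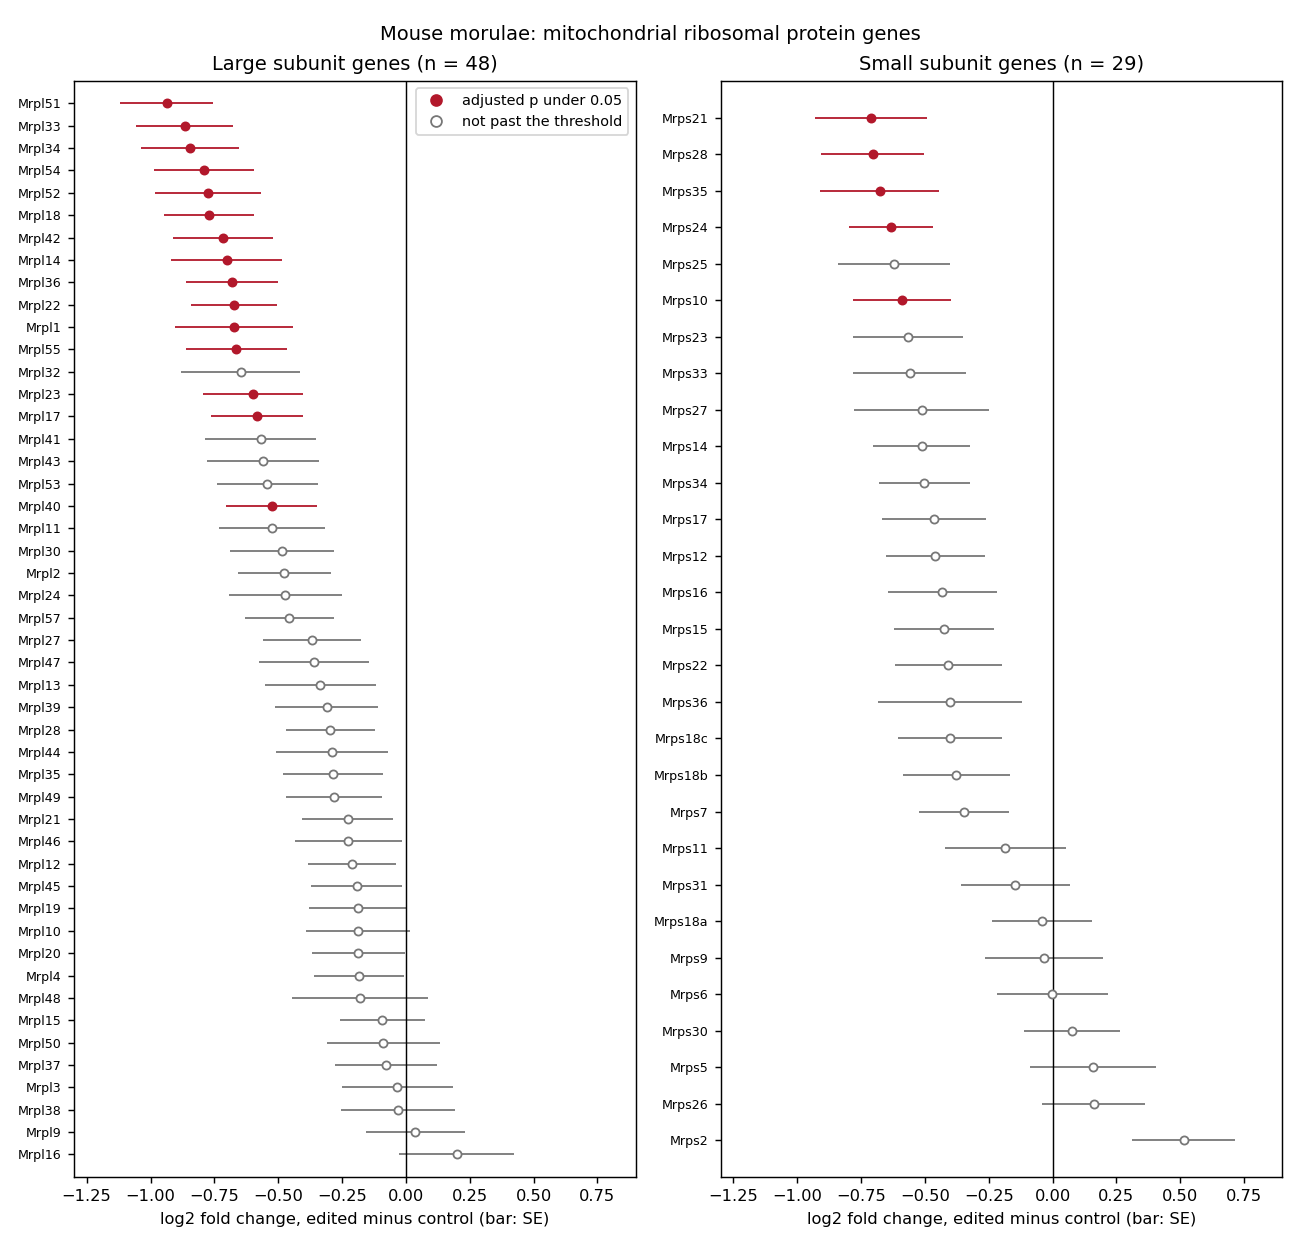
Log2 fold change of each mitochondrial ribosomal protein gene in mouse morulae (x axis, edited minus control on log2(value + 1), bars show the SE, 2 samples a group), with large subunit genes on the left and small subunit genes on the right. Filled points passed an adjusted p of 0.05 (limma): 15 large and 5 small subunit genes, all to the left of 0, while 6 genes lie to the right of 0.

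Large subunit genes had a median of -0.41, with 15 of 48 lower past the threshold, against 8.38% of all tested genes. Mrpl51, a mitochondria-specific protein (chromosome 6, 125191801 to 125196269, GRCm38), had 1478 and 1274 normalized reads in control and 636 and 807 in edited morulae. Both edited samples lay well below both controls. It had the most negative change of all members, -0.94 ± 0.18 (SE; adjusted p = 8.6e-04, limma), and lost the call without control 1 (adjusted p = 0.0698). Mrpl33, which descends from bacterial L33 (chromosome 5, 31596935 to 31664384), had control values of 978 and 768 reads and edited values of 483 and 466. The edited values were close to each other and the groups were clearly separate, with a change of -0.87 ± 0.19 (adjusted p = 0.0025, limma). Without control 1 its adjusted p was 0.152.

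Mrpl34, the counterpart of bacterial L34 (chromosome 8, 71464959 to 71465747), went from 818 and 741 to 392 and 478 normalized reads. The change was -0.85 ± 0.19 (adjusted p = 0.0033, limma). Mrpl18, whose bacterial relative binds the 5S ribosomal RNA (chromosome 17, 12911349 to 12916345), had nearly equal controls of 1596 and 1598 and edited values of 820 and 1067. Its change was -0.77 ± 0.18 (adjusted p = 0.0037, limma). Its exons overlap those of Tcp1 on the other strand, and reads of the pair cannot be told apart where counting ignored strand. Such overlap with another annotated gene held for 32 of the 77 members and for 6 of the 20 that fell. Mrpl51, Mrpl33 and Mrpl14 are among these 6. The share of all genes with an overlap was not computed.

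Among the other large subunit genes that fell, Mrpl54, Mrpl52 and Mrpl42 are mitochondria-specific. Mrpl54 went from 984 and 813 to 438 and 610 reads (-0.79), and Mrpl42 from 933 and 713 to 443 and 556 (-0.72). Mrpl52 had 527 and 725 in control and 318 and 409 in edited samples, -0.78 ± 0.21 (adjusted p = 0.0116, limma). It was the 1 member that still passed without control 1, with an adjusted p of 0.0429. Mrpl22, which lines the tunnel through which the new protein leaves, was the member with the highest control level per kilobase of transcript, 2656 normalized reads per kilobase. It went from 2048 and 1787 normalized reads to 1149 and 1250, -0.67 ± 0.17 (adjusted p = 0.0068, limma). Mrpl14, which sits at the contact between the subunits, went from 449 and 343 to 231 and 252 (-0.70), and Mrpl1, the protein of the stalk beside the tRNA exit, from 339 and 309 to 169 and 242 (-0.67).

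Other large subunit genes did not pass the threshold. Mrpl12, which also binds the mitochondrial RNA polymerase, had 1606 and 1466 reads in control and 1193 and 1476 in edited morulae. The groups overlapped, and the change was -0.21 ± 0.17 (adjusted p = 0.455, limma). Mrpl9, Mrpl38 and Mrpl3 were the large subunit genes closest to 0, at 0.04, -0.03 and -0.03, each with overlapping groups.

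Small subunit genes had a median of -0.43, with 5 of 29 lower past the threshold, against 8.38% of all tested genes. Mrps21, a core protein, went from 382 and 416 normalized reads to 207 and 286. Mrps28, placed where bacteria have S1, went from 632 and 498 to 342 and 346. Both genes had separate groups, with changes of -0.71 ± 0.22 (adjusted p = 0.0273) and -0.70 ± 0.20 (adjusted p = 0.017, limma). Mrps24, the counterpart of bacterial S3 at the mRNA entrance, had the highest control level per kilobase of this subunit, 2185. It went from 2297 and 2052 to 1382 and 1420 reads, -0.63 ± 0.16 (adjusted p = 0.0093, limma), and its exons overlap those of Urgcp. Mrps34, with the next level per kilobase (1066), went from 979 in both controls to 723 and 660, and at -0.50 ± 0.18 missed the threshold (adjusted p = 0.0543, limma).

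Some small subunit genes were close to control or above it. Mrps6, Mrps9 and Mrps18a were closest to 0 (-0.002, -0.03 and -0.04). Mrps2, a core protein chosen here after its values were seen, was the highest member. It went from 320 and 352 reads to 448 and 512, with both edited samples above both controls. The change was 0.51 ± 0.20 and missed the threshold (adjusted p = 0.0849, limma), although it passed with libraries scaled to the same total (adjusted p = 0.0273).

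The MRPL and MRPS letters do not always give the place in the assembled ribosome. MRPS30 and MRPS18A are parts of the large subunit, and MRPS18B and MRPS18C, relatives of MRPS18A, are parts of the small one. In mouse, Mrps30 went from 723 and 576 to 684 and 676 reads and Mrps18a from 613 and 476 to 534 and 515, with overlapping groups in both. Mrps18b and Mrps18c had changes of -0.38 and -0.40, with both edited samples below both controls, and neither passed the threshold. MRPS36, later assigned to the 2-oxoglutarate dehydrogenase complex rather than the ribosome, had 125 and 111 reads in control and 83.0 and 95.7 in edited morulae (-0.40 ± 0.28, adjusted p = 0.373, limma). GENCODE names 5 pseudogenes for members, 3 of them for Mrps36, so its counts are uncertain.

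Per library, both subunits moved together. The mean log2 level of all members was 9.15 and 9.02 in the controls and 8.58 and 8.81 in the edited morulae. The large subunit mean exceeded the small subunit mean by 0.51 and 0.47 in control and by 0.43 and 0.40 in edited samples, so the gap was narrower in both edited libraries. The median change of the large subunit minus that of the small subunit was 0.01, and it was 0.07 with Mrps30 and Mrps18a counted as large. The members took 1.13% and 1.03% of reads in the control libraries and 0.834% and 0.925% in the edited ones. The most abundant gene, LOC101056014, took 2.42% and 3.30% of control reads and 7.20% and 4.73% of edited reads. With it left out of the total, the members' shares were 1.15% and 1.06% in control and 0.899% and 0.971% in edited libraries. Edited 1 lay below edited 2 for 63 of the 77 members, and control 2 below control 1 for 57.

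**Figure D2:**
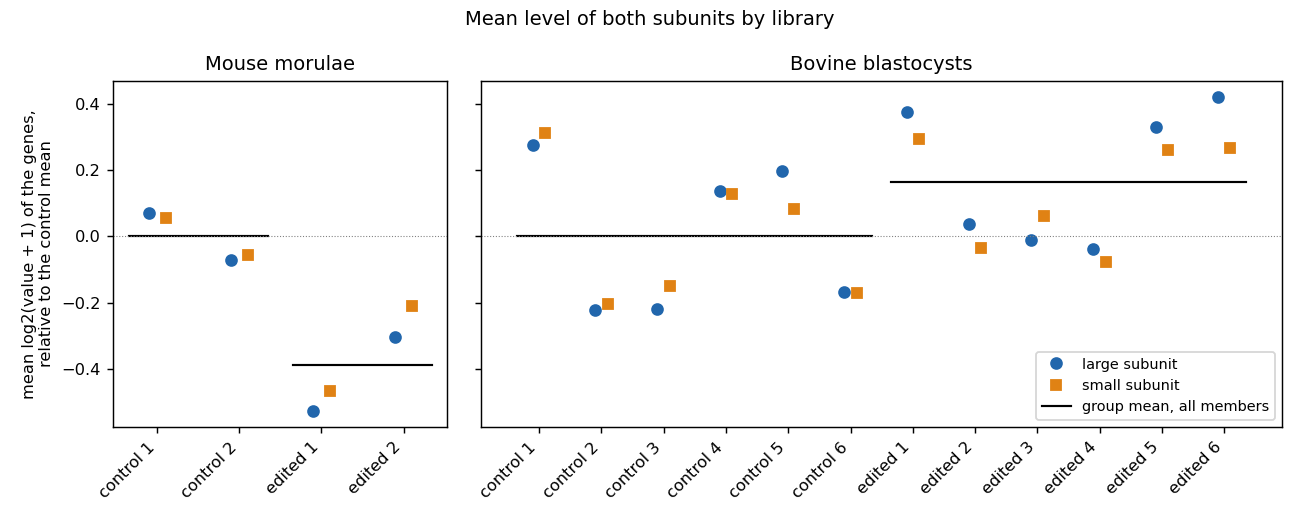
Mean log2(value + 1) of large subunit genes (circles) and small subunit genes (squares) in each library, relative to the control mean of the species, with lines at the group mean of all members. Both edited mouse libraries lie below both controls, and the edited and control bovine libraries overlap.

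By origin, the core large subunit proteins with bacterial counterparts had a mouse median of -0.42 (10 of 30 fell) and the mitochondria-specific large subunit proteins -0.30 (5 of 20 fell). The core small subunit proteins had a median of -0.43 (4 of 16 fell) and the mitochondria-specific ones -0.51 (1 of 10 fell). All 4 classes thus had medians below 0, and the difference between them was not tested. Among all tested genes 8.38% fell, and 1 of 10 is near that share. With the length trend described further on removed, both large subunit classes had a median of -0.19, with 4 of 30 and 2 of 20 lower. The core small subunit class then had -0.08 (1 of 16) and the mitochondria-specific one -0.19 (2 of 10). The background was then 5.48% lower, and 1 of 16 is near that share. Subunits named otherwise were split. Chchd1 (476 and 416 to 223 and 288 reads, -0.81), Aurkaip1 (-0.66) and Dap3 (-0.58), all of the small subunit, fell past the threshold. With the length trend removed Chchd1 and Aurkaip1 lost the call (adjusted p = 0.365 and 0.146, limma), and Dap3 lost it with libraries scaled to the same total (0.105). Ptcd3, a small subunit protein with RNA-binding repeats, had control values of 156 and 195 reads and edited values of 262 and 288, 0.65 ± 0.23 (adjusted p = 0.0565, limma), and it passed with libraries scaled to the same total (0.0222). Ict1, the peptidyl-tRNA hydrolase of the large subunit, and Gadd45gip1 did not pass, at -0.36 and 0.14.

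Transcript length moved with the change. Members had a median transcript length of 1288 nucleotides in GENCODE M21 against 2895 for all tested genes. All tested genes with a length were put into 10 bins of equal size by length. The bin with the shortest transcripts, 66 to 1120 nucleotides, had a median log2 fold change of -0.50, with 31.2% lower past the threshold. In that bin, 31 members had a median of -0.56, and 14 of the 20 that fell were there. In the bins from 2006 nucleotides up, where the medians of all genes lay between 0.04 and 0.12, 21 of 24 members were below the median of their own bin, and 4 had fallen past the threshold. Over all bins 55 of 77 members were below the median of their bin. Across the 77 genes, which are not independent replicates and share the same 4 libraries, the log2 fold change and log2 length had a Pearson r of 0.31 and a Spearman rho of 0.38.

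With the length trend of each library removed, the member median was -0.17 and 9 members fell against a background of 5.48% lower. Of the 20, 5 were among these 9: Mrpl51 (-1.04, adjusted p = 0.0017, limma), Mrpl18, Mrps35, Mrpl1 and Mrpl17. Mrpl33 is one that was not, at -0.28 (adjusted p = 0.329, limma), with a transcript of 478 nucleotides. The lengths used were 3427 for Mrpl51, 1219 for Mrpl18, 4162 for Mrps35, 3556 for Mrpl1 and 7300 for Mrpl17. Both the length bins and this fit rest on the annotated transcript chosen for each gene. Other transcripts of the same genes were not tried, so how far these counts depend on that choice was not tested.

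**Figure D3:**
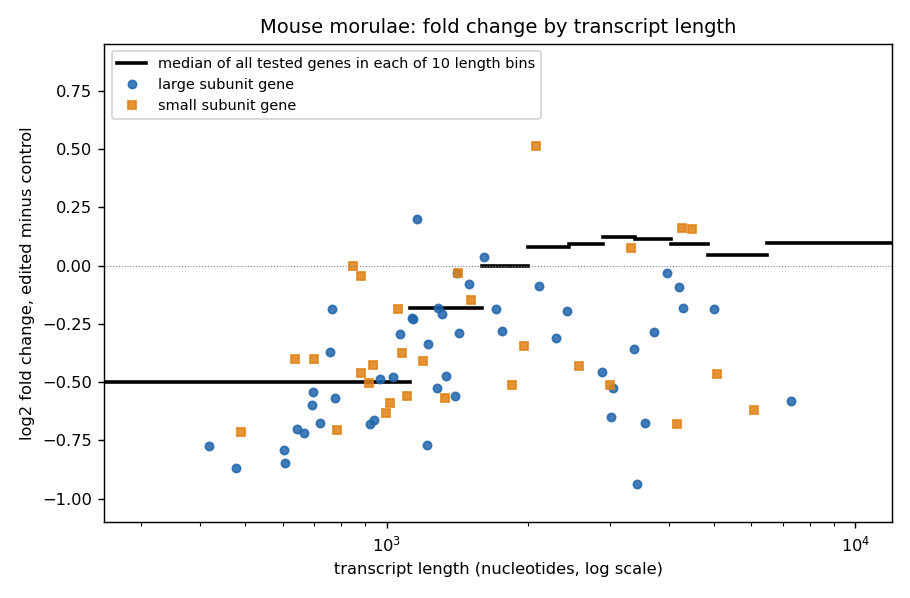
Mouse log2 fold change (y axis, edited minus control) against annotated transcript length (x axis, nucleotides on a log scale), with circles for large and squares for small subunit genes and black lines for the median of all tested genes in each of 10 length bins, clipped at both ends of the axis. The shortest bin has a median of -0.50, and 31 of the 77 members lie in it.

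Genes of the same process were counted from lists. None of 11 mitochondrial translation factors, which start, extend and end translation on this ribosome, passed the threshold in mouse (median -0.13, 0 at an unadjusted p under 0.05, limma). Among all tested genes 8.38% were lower and 6.92% higher, shares at which 11 genes would hold few calls. The median transcript length of these factors was 2623 nucleotides against 1288 for the members, so the lists also differ in length. The elongation factor gene Tufm went from 411 and 434 reads to 492 and 589 (0.35, adjusted p = 0.246, limma). Of 26 tested genes for ribosome assembly and rRNA modification, 2 fell and 2 rose, with a median of 0.02, so that both shares were near those of all tested genes (8.38% and 6.92%). Noa1, a GTPase of small subunit assembly, rose from 43.6 and 53.1 to 151 and 114 reads (1.43 ± 0.31, adjusted p = 0.0026, limma), and the helicase Ddx28 rose by 0.86. The pseudouridine synthase Rpusd3 (-0.80) and Mpv17l2 (-0.69), which takes part in assembly, fell. Both of these calls were lost with libraries scaled to the same total (adjusted p = 0.0918 and 0.0879, limma) and with the length trend removed (0.172 and 0.365). The call of Ddx28 was lost with the length trend removed (0.0708).

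Of 12 factors that regulate nuclear genes of mitochondria, Myc (0.91) and the coactivator Pprc1 (0.63) rose and none fell, against 6.92% higher among all tested genes. With the length trend removed Pprc1 no longer passed (adjusted p = 0.0564, limma). Nrf1 (0.23), Gabpa (0.38) and Yy1 (-0.48) did not pass. Of the 13 proteins encoded by mitochondrial DNA, 1 was called lower (ND6, -0.65, from a strand other than its neighbours) and the median was -0.25. That count is near the share of all tested genes, 8.38% lower. With libraries scaled to the same total, 1 of the 13 fell and 1 rose, against 684 and 1113 of all 11386 tested genes. Genes of 2 other processes had lower medians than the members: 65 of 82 cytosolic ribosomal protein genes fell, with a median of -0.60, and 41 of 76 nuclear genes of oxidative phosphorylation, also -0.60. These counts stand against the background of 8.38% lower. Their median transcript lengths were 882 and 835 nucleotides. With the length trend removed, 11 of the 82 and 5 of the 76 fell, against a background of 5.48%, and their medians were -0.21 and -0.23.

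**Figure D4:**
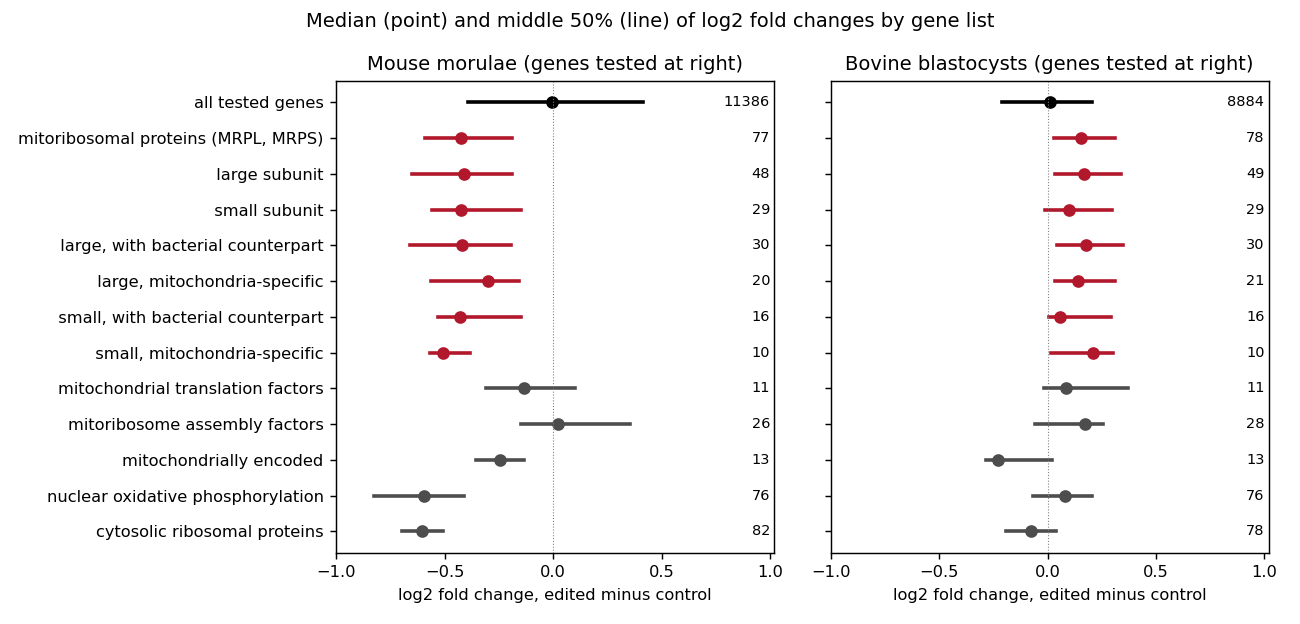
Median (points) and middle 50% (lines) of log2 fold changes, edited minus control, for all tested genes, the mitochondrial ribosomal proteins with their subunits and classes, and related gene lists, in mouse morulae (left) and bovine blastocysts (right), with the number of genes tested at the right of each panel. The member median is -0.43 in mouse and 0.15 in cattle.

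In bovine blastocysts, no mitochondrial ribosomal protein gene passed the threshold in either direction. That held for all 78 members with limma, edgeR, DESeq2 and the authors' deposited table, and 0.0113% of the 8884 tested genes (1 gene) passed with limma. The members' median log2 fold change was 0.15 against 0.01 for all tested genes, with 65 above 0 and 13 below. Control and edited values overlapped for all 78. Overlap was usual, since of all 8884 tested genes 14 had every edited library below control and 8 had every one above. At an unadjusted p under 0.05 (limma), 5 members were higher against a background of 2.77%, and 1 was lower against a background of 3.11%. The median stayed above 0 when any 1 library was left out, from 0.10 to 0.22. Scaling to the same total moved the median of all genes to 0.13 and that of the members to 0.27. With RN18S1 left out of that total they were -0.02 and 0.13.

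MRPS31, a mitochondria-specific small subunit protein, had the smallest bovine p of the members. It ranged from 74.1 to 133 normalized reads (median 102) in control and from 96.6 to 175 (median 153) in edited blastocysts. Of the 6 edited libraries, 5 lay above all controls, and edited 6 lay among them. The change was 0.55 ± 0.19 (unadjusted p = 0.0094, adjusted p = 0.792, limma). MRPL1 ranged from 81.6 to 163 (median 121) in control and from 132 to 175 (median 156) in edited samples (0.42), and MRPS15 from 92.9 to 155 (median 136) and from 109 to 233 (median 184), 0.48. MRPL43 and MRPL49, the other genes at an unadjusted p under 0.05, had changes of 0.57 and 0.58. MRPL49 was named after its values were seen.

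MRPS36 was the lowest bovine member. It ranged from 63.0 to 153 (median 101) in control and from 48.8 to 87.7 (median 61.5) in edited blastocysts, -0.58 ± 0.23 (unadjusted p = 0.0194, adjusted p = 0.792, limma). MRPL40 and MRPL33 were the next lowest at -0.20 and -0.18, with as few as 6 reads in a library. The genes with the highest bovine control means were MRPL11, at the base of the stalk that recruits translation factors, with 252 to 370 reads (median 296), then MRPL55 and MRPL12. Of the small subunit they were MRPS10 (136 to 257, median 202), MRPS16 and MRPS33. None of these 6 passed the threshold, and their changes ran from -0.14 (MRPS33) to 0.29 (MRPS10).

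The bovine large subunit had a median of 0.17 and the small subunit 0.10. Per library, the mean log2 level of all members ran from 6.57 to 7.08 (median 6.77) in control and from 6.74 to 7.15 (median 6.95) in edited blastocysts, so the groups overlapped. The large subunit mean exceeded the small one by 0.03 ± 0.06 (SD, n = 6) in control libraries and by 0.09 ± 0.07 (SD, n = 6) in edited ones. The members' share of reads was 0.642% ± 0.122 (SD, n = 6) for control and 0.783% ± 0.122 (SD, n = 6) for edited blastocysts. With RN18S1 left out of the total these shares were 0.805% ± 0.080 and 0.893% ± 0.115. The subunits named otherwise ran from 0.02 (DAP3) to 0.44 (PTCD3) and none passed. No translation factor (11, median 0.09) and no assembly gene (28, median 0.17) passed, and neither list held a gene with an unadjusted p under 0.05 (limma). Of 10 tested regulators, YY1 had an unadjusted p under 0.05 (-0.57, adjusted p = 0.792, limma).

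Between species, the change of a gene in mouse was set against that in cattle by subtracting one log2 fold change from the other and dividing by the standard error. The samples differ in species and in stage, which cannot be told apart. Of the 77 shared members, 73 had a lower value in mouse than in cattle, and the median difference was -0.60 against -0.06 for all 7073 shared genes. After adjustment over those genes, 8 members differed, all lower in mouse. The background was 3.69% lower and 2.38% higher in mouse. MRPL43 (difference -1.13 ± 0.34, adjusted p = 0.0387) and MRPL1 (-1.09 ± 0.30, adjusted p = 0.0219) had the largest differences among these 8, followed by MRPL34 (-1.07), MRPL22 (-1.06), MRPL51 (-0.97) and MRPS15 (-0.91). MRPL36 had a larger difference than any of them (-1.28 ± 0.41) but missed the threshold (adjusted p = 0.0573). The count of 8 also rested on single libraries. It was 0 without mouse control 1, 1 without mouse control 2, 2 without mouse edited 1 and 26 without mouse edited 2, and 4 to 11 without any 1 bovine library. It was 3 with the length trend removed in mouse. The count over all shared genes in these settings is not given here, so these counts have no background.

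By direction, 60 members were below control in mouse and above it in cattle, 11 were below in both, 4 above in both, and 2 above in mouse and below in cattle. MRPS2 was one of the last, at 0.51 in mouse and -0.10 in cattle. Across the 77 genes, Pearson's r between the species was 0.12 and Spearman's rho 0.20, a description over genes that share the libraries of each species.

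**Figure D5:**
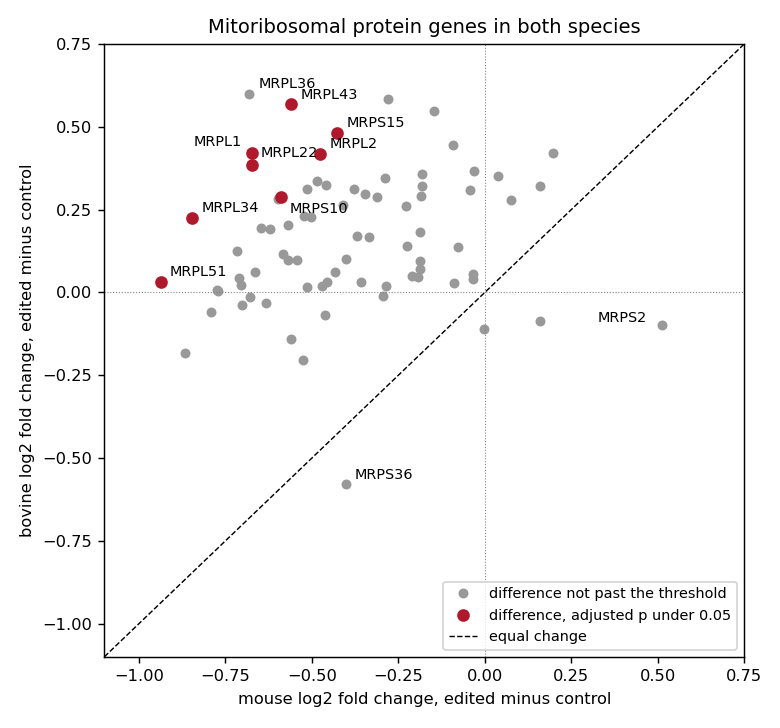
Log2 fold change of the 77 shared genes in mouse morulae (x axis) and bovine blastocysts (y axis), both edited minus control, with the dashed line at equal change. Filled red points mark the 8 genes whose change differed between species at an adjusted p under 0.05, and 60 of the 77 lie to the left of 0 and above 0.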

How the data were processed

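Libraries followed Smart-seq2 from oligo(dT)-primed polyadenylated RNA, per the labels' protocols. Reads went through Trimmomatic, HISAT2, featureCounts and DESeq2 with the builds mm10 and ARS-UCD1.2, per the submitters' processing notes. Versions, annotation, strandedness and the use of multi-mapping reads are not given in the sources used here. The deposited signal values are gene counts that the authors scaled by size factors, per the file headers. Dividing by the step of each library returned whole reads (tolerance 0.05) for 100% of values, and these gave the depths. The authors' log2 fold changes, p-values and adjusted p-values are deposited in the same tables and were only quoted under that name. The deposited test statistic, a score, was not used.

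Groups and replicate numbers came from the sample titles. Within each table, every gene with a mean of at least 10 was tested on log2(value + 1) by limma (version 3.58.1 under R 4.3.3, with trend, two-sided, edited minus control), with Benjamini-Hochberg adjustment over all tested genes (11386 in mouse, 8884 in cattle) and a threshold of 0.05. Fold changes on this scale understate the change of low genes. Fitting functions were tested on simulated data. Alternatives were edgeR 4.0.16 and DESeq2 1.42.0 on recovered reads, other pseudocounts, filters and scalings, robust limma, the replicate number as a block, a length trend removed, and each library left out in turn. Mouse lengths and coordinates came from GENCODE M21 (GRCm38), and all 77 members had both. The length was that of the longest transcript among those with the best principal rank of the gene. All 78 bovine symbols were in a RefSeq table used for names only. The smallest count of a member in a library was 87 reads in mouse and 6 in cattle, the median 459 and 123, and the median SE 0.20 and 0.21.

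The members and lists were chosen with earlier results of these data known. Named were the edited gene, the members with the largest changes past the threshold (in cattle, an unadjusted p under 0.01), those with the highest levels, those closest to 0 in mouse, 6 members with a known particular place, the same genes in the other species, members that differed between species, members with a library far from the others, and the largest changes of each list. Members named beyond this rule (such as Mrps2, Mrps35, Mrpl17, MRPL40, MRPL41 and MRPL49) were chosen after their values were seen, and uncalled list genes are given to describe a list. Promoter motifs and sequences were not analysed here.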

Additional observations from a re-analysis of the deposited data

Results flagged for a closer look

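In 3 of 160 groups tested, 1 bovine edited library lay far from the other 5, where chance gives about 1 in 20 groups. MRPL43 had 58.2 normalized reads in edited 4 and 109 to 132 in the others. MRPL22 had 163 in edited 3 and 111 to 122 in the others. MRPS14 had 127 in edited 5 and 168 to 185 in the others. These are 3 different libraries, and the mouse groups of 2 could not be examined in this way.

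The change differed between mouse morulae and bovine blastocysts for 8 members by the test of the difference (mouse minus bovine log2 fold change, adjusted over 7073 genes). The difference was -1.13 for MRPL43, -1.09 for MRPL1, -1.07 for MRPL34 and -1.06 for MRPL22. It was -0.97 for MRPL51, -0.91 for MRPS15, -0.89 for MRPL2 and -0.88 for MRPS10, the last pair close to the threshold (adjusted p = 0.0493 and 0.0495). MRPL43 and MRPL22 are in both sets, so their bovine values also hold the library that stands apart.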

How the results depend on the processing

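The main limits are 2 libraries a group in mouse and few reads per gene in cattle. The 20 mouse members that fell became 9 with the length trend removed. With libraries scaled to the same total 11 fell and 1 rose, against 684 and 1113 of all 11386 tested genes. Leaving out 1 library gave counts of 1 to 37. The mouse median of -0.43 became -0.17 with the length trend removed and ran from -0.56 to -0.29 with 1 library left out. The large minus small difference of 0.01 became -0.0947 with the length trend removed, 0.0682 with MRPS30 and MRPS18A counted as large, and -0.0213 to 0.0614 with 1 library left out. The 8 members differing between species became 3 with the length trend removed in mouse and ran from 0 to 26 with 1 library left out. Both of these settings for the species difference were chosen after seeing the data. The cause of these shifts was not tested, and the counts with 1 library left out have no background of all genes here. Other alternatives kept the mouse count within 15 to 24, and the bovine counts of 0 and the bovine medians did not move by more than the spread between libraries. With 1 library left out, the same genes were tested and the lone mouse library was assumed to vary like the others.

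With the replicate number as a block, 20 mouse members fell and 0 bovine members passed. The samples share only a number: deviations of same-numbered samples correlated at 0.106 in mouse and from -0.19 to 0.34 in cattle, where 1 of 6 numbers correlated best with its own.

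Over both species, the members named by the rule lost the call in 51 combinations of gene and setting and gained it in 8, and no called member changed sign. Of 51 uncalled values of such members, 18 in mouse and 33 in cattle, 27 changed sign in some setting. Other genes named in the text are not in these counts.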

Other observations

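Within the bovine groups, most members varied together between libraries. After removal of the group means, the first principal component held 43.0% of the variance of all members. The same was not computed for all genes or another list, so it is not shown to be particular to the members. Scores of the component were positive in control 1, 4, 5 and 6 and edited 1, 5 and 6, and negative in the other libraries of both groups. Control 6 had a positive score although its member mean was -0.17 relative to the control mean. Of the members, 58 loaded positively and 20 negatively. MRPL41, a mitochondria-specific protein, loaded most, with 56.9 to 207 normalized reads in control and 65.1 to 218 in edited libraries. MRPL12 came next, with 121 reads in edited 4 and 361 in edited 6. MRPS36, at the other end, had 153 reads in control 3 and 48.8 in edited 5. Depth moved with these scores: the libraries with negative scores held 817329 to 1304737 reads and the others 1163643 to 2501592, and its part was not tested.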
